A study of Mus musculus with 3 samples.

Results

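The lung library labelled PD00 was compared with the lung library labelled Control, 1 library on each side, to describe what still differed from Control when PD00 had been given. Members of the comparison were all cells of both libraries that held no fewer than 500 UMIs (unique molecular identifiers, which count captured RNA molecules) and 200 genes, with mitochondrial UMIs of 20% at most. These were 9647 PD00 and 9789 Control cells, 19436 of the 30973 kept cells of the series. All lungs came from mice aged 3 months and were profiled as single cells with a droplet 3' kit. By the series title, immune cells were induced with ovalbumin, an egg protein used to sensitise and challenge the airways, and PD00 is a peptidomimetic, a molecule built to resemble a peptide. The labels give no strain, dose, route or number of animals per library, and call the tissue of all 3 libraries healthy. Whether the PD00 mice also received ovalbumin is not stated in them. The Model library (11537 cells) is given beside the other two for reference only, since it shares the Control library with the comparison.

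In allergic airway inflammation, T helper 2 cells and group 2 innate lymphoid cells (ILC2) make the type 2 cytokines IL-4, IL-5 and IL-13. IL-5 sustains eosinophils, IL-4 drives B cells to switch to IgG1 and IgE, and IL-13 turns airway epithelium towards mucus production. IL-4 and IL-13 signal through the transcription factor STAT6, and macrophages that receive them take up a programme called alternative activation, marked in mice by Arg1, Retnla and the chitinase-like proteins. Alveolar macrophages live in the air spaces and clear surfactant, while interstitial macrophages sit in the tissue.

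Both libraries held lung tissue by their markers, with surfactant genes in epithelial cells and the full alveolar macrophage marker set, and all 3 libraries were of similar total depth (79673537 to 82836716 kept UMIs). The Control library nevertheless stood apart from the others in unintegrated clustering: 80.8% of its cells lay in clusters that were at least 90% Control, and 88.5% of PD00 cells lay in clusters with at most 10% Control cells. Median depth was 5479 UMIs per Control cell and 4604 per PD00 cell. The filters removed 281 Control and 24 PD00 barcodes for too few genes and 76 and 192 for mitochondrial UMIs. The Control barcodes on either side of the limits had 201 and 198 genes and 19.9% and 20.01% mitochondrial UMIs, and those of PD00 had 200 and 189 genes and 19.97% and 20.2%. Control and PD00 shared 29 kept barcode sequences. Cells were gated by marker genes into 20 types. The gate names stand for marker patterns and not for proven identities. Cells whose second-best type came close (4.51% of Control and 3.72% of PD00 cells) were set aside as mixed, and 5.16% of Control and 13.2% of PD00 cells, of median 1445 and 904 UMIs, fell in no gate. Each group had 1 library, so no test between groups was run, no difference has a replicate check, and every 95% interval in parentheses covers counting error only. With 1 library a side, the effect of the treatment, of the animals and of the library preparation cannot be told apart.

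The PD00 lung held more eosinophils, plasma cells, interstitial macrophages and T cells than the Control lung, and fewer alveolar macrophages, NK cells and stromal cells. Cells gated as eosinophils, granulocytes recruited by IL-5 and eotaxins, made up 0.143% of Control cells (14 cells), 4.55% of PD00 cells (439 cells) and 4.12% of Model cells. The PD00 share was 31.8 times (18.8 to 58.7) the Control share, and the gated cells were shallow in both libraries, with medians of 1138 and 943 UMIs. Plasma cells, which secrete antibody, were 0.235% of Control (23 cells), 3.57% of PD00 (344 cells) and 3.43% of Model, 15.2 times (9.95 to 24.3) the Control share in PD00. Interstitial macrophages were 2.07% of Control, 7.85% of PD00 and 10.1% of Model, 3.78 times (3.24 to 4.44) the Control share in PD00. T cells were 18.4% of Control, 26.9% of PD00 and 26.4% of Model, 1.46 times (1.38 to 1.55) the Control share in PD00. In each of these 4 gates the PD00 and Model shares lay on the same side of Control, with intervals apart from that of Control. With each cell given the type of its cluster, the ratios of PD00 over Control were 9.66 for plasma cells and 6.05 for interstitial macrophages, and with a stricter gate that of eosinophils was 65.3.

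Alveolar macrophages were the most numerous gate in Control, with 32.9% of cells (31.98 to 33.9; 3222 cells), against 13.1% in PD00 (12.4 to 13.7; 1259 cells) and 5.43% in Model. The PD00 share was 2.52-fold lower (2.36 to 2.69), and it lay between Control and Model. Natural killer (NK) cells, cytotoxic innate lymphocytes, were 4.29% of Control, 0.715% of PD00 and 1.68% of Model, 5.999-fold lower (4.64 to 7.86) in PD00. PD00 was the lowest of the 3 libraries for NK cells. By cluster the NK ratio of PD00 over Control was 0.00807, against 0.167 by cell. Control NK cells lay in cluster 0 (99.8%), but PD00 NK cells lay in cluster 34 (97.1%), which the cluster gate gave to another type. The value by cluster thus leaves out most NK-gated cells of PD00. Fibroblasts (4.29% in Control, 1.87% in PD00 and 1.58% in Model) and endothelial cells (4.01%, 2.68% and 2.80%) were also lower, by 2.30-fold (1.93 to 2.75) and 1.495-fold (1.28 to 1.76) in PD00 against Control. Contractile mural cells went from 0.654% to 0.135% and red cells from 1.30% to 0.207%. ILC2 differed by less than counting error (1.98% and 2.22%, ratio 0.917 to 1.37), and so did epithelial cells at 85 and 65 cells. B cells (8.06% and 7.08%) and neutrophils (7.64% and 6.36%) were 0.878 and 0.833 times the Control share. Shares are of 1 whole, so a higher share of one type lowers all others. A further 209 PD00 cells (2.17%) and 14 Control cells carried macrophage markers that did not tell alveolar from interstitial.

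**Figure D1:**
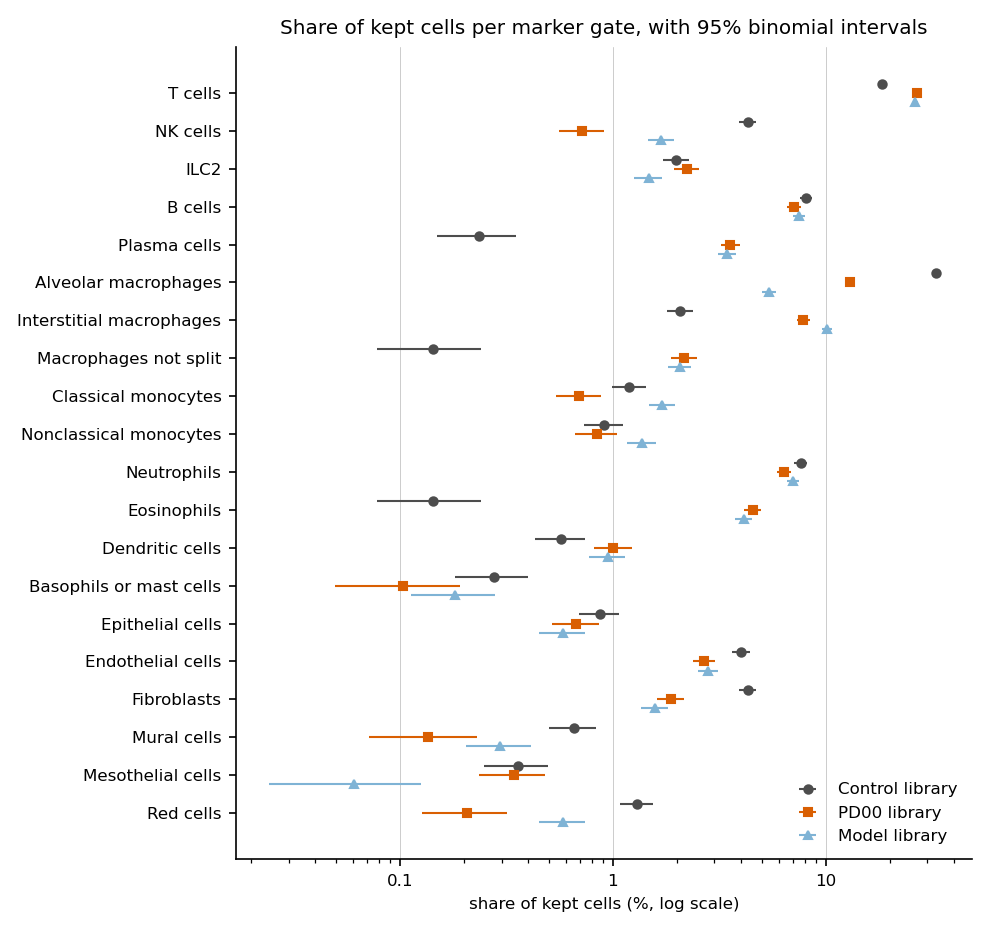
Share of kept cells in each marker gate (x axis, %, log scale) for the Control, PD00 and Model libraries, with 95% binomial intervals as bars. Eosinophils (0.143% and 4.55%) and plasma cells (0.235% and 3.57%) lie far higher in PD00 than in Control, and alveolar macrophages (32.9% and 13.1%) lie lower.

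Summed over all kept cells, genes of mucous epithelium, eosinophils and alternatively activated macrophages were far higher in PD00 than in Control, and inflammatory genes of Control alveolar macrophages were far lower. Levels are given in CPM, UMIs per 1000000 of the summed cells, and where a pair of levels carries no library names, the first is Control and the second PD00. Among the 15361 genes that reached 50 UMIs in Control and PD00 together, 5.79% were at least 2-fold higher in PD00 and 8.79% at least 2-fold lower. Clca1, a secreted product of mucous cells (chromosome 3, 145003817 to 145032776), had 0 UMIs in Control, 15231 UMIs (191 CPM) in PD00 and 449 CPM in Model. Set against a floor of 3 UMIs, it was 5279-fold higher in PD00 (interval from 4292), and 76.5% of its PD00 UMIs were in the epithelial gate. The mucin Muc5b stood at 0.0724 CPM in Control, 12.1 in PD00 and 25.2 in Model, 168-fold higher in PD00 (76.7 to 458). Fcgbp, a mucus-associated protein, had 1 UMI in Control and 396 in PD00 (412 times; 73.5 to 16303). All 3 of these genes were also high in Model, and higher there than in PD00.

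Among genes of myeloid cells, the eosinophil-associated ribonuclease Rnase2a stood at 0.205 CPM in Control, 413 in PD00 and 704 in Model, 2014-fold higher in PD00 (1257 to 3457). Most of its PD00 UMIs were in macrophages, 39.2% in alveolar and 31.2% in interstitial ones. Prg2, the major basic protein of eosinophil granules, stood at 0.109 CPM in Control, 17.3 in PD00 and 19.2 in Model, 159.7-fold higher in PD00 (83.9 to 349.9), with 53.1% of PD00 UMIs in the eosinophil gate. These high values were shared by PD00 and Model. Fbp1, a gluconeogenic enzyme, stood at 0.338 CPM in Control, 126 in PD00 and 170.3 in Model, 374-fold higher in PD00 (259 to 563), and 73.7% of its PD00 UMIs were in alveolar macrophages. Mmp12, the macrophage elastase, stood at 34.4 CPM in Control, 4453 in PD00 and 4872 in Model, 129-fold higher in PD00 (125 to 134). Arg1, the arginase of alternatively activated macrophages (chromosome 10, 24915221 to 24927484), stood at 2.35 CPM in Control, 204 in PD00 and 257 in Model, 86.6-fold higher in PD00 (75.2 to 100.3). Of its UMIs, 45.1% were in ILC2 in Control, and in PD00 32.5% were in alveolar and 26.9% in interstitial macrophages. H2-M2, a nonclassical MHC gene, stood at 0.410 CPM in Control, 43.6 in PD00 and 74.6 in Model, 106-fold higher in PD00 (75.9 to 154), with 82.4% of its UMIs in dendritic cells in Control and 47.2% in interstitial macrophages in PD00.

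Retnla encodes a secreted resistin-like protein made by alternatively activated macrophages and airway epithelium. It stood at 9.14 CPM in Control, 2449 in PD00 and 2488 in Model, 268-fold higher in PD00 (249.6 to 288), with PD00 and Model close together. In Control 74.4% of its UMIs were in interstitial macrophages, and in PD00 36.3% were in epithelial cells and 26.2% in interstitial macrophages. The type 2 cytokine Il4 stood at 0.628 CPM in Control, 4.58 in PD00 and 4.76 in Model, 7.30-fold higher in PD00 (5.45 to 9.96). The promoters of both genes are shown because STAT6, the factor of the IL-4 receptor, recognises a palindrome spelled TTCNNNNGAA, and both hold it. Each run covers 250 bases before to 50 bases after the start site in the RefSeq promoter table (GRCm38.p6), 5′ to 3′ on the gene's strand, with the palindrome in capitals.
Retnla, chr16:48842359-48842658, plus strand: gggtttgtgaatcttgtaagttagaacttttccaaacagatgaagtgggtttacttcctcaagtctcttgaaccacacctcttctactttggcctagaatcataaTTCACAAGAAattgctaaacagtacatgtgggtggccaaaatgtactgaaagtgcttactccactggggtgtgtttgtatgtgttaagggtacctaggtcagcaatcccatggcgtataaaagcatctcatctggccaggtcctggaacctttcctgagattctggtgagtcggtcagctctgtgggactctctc
Il4, chr11:53618616-53618915, minus strand: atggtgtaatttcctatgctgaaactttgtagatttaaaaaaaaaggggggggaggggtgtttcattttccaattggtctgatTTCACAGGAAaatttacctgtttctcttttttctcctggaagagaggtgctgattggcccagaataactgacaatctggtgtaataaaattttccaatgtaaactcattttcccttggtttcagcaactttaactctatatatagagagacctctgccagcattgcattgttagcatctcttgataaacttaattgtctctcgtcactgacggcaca
In Retnla the palindrome begins at base 106, 145 bases before the start site, and in Il4 at base 84, 167 bases before it. Being a palindrome, it reads the same on both strands. It occurs in 6.95% of the 32851 promoters of the table and for 8.01% of 27025 genes. Of the 19 genes that were highest in PD00 or listed as readouts of ovalbumin models, 12 had a promoter in the table and 2 of those held the palindrome, and of the 10 lowest genes 8 had one and 0 held it. A match is only a description of these letters.

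The type 2 readouts were all higher in PD00. Il5, the eosinophil growth factor, stood at 0.785 CPM in Control, 3.85 in PD00 and 4.84 in Model, 4.91-fold higher in PD00 (3.75 to 6.52). Il13 stood at 0.471 CPM in Control, 6.92 in PD00 and 9.93 in Model, 14.7-fold higher in PD00 (10.6 to 20.9). Both were slightly higher in Model than in PD00. Their UMIs came mainly from T cells in PD00 (82.7% for Il5 and 83.7% for Il13), but from ILC2 (55.4% for Il5) and from basophils or mast cells (51.3% for Il13) in Control. The eotaxin Ccl24, a chemoattractant of eosinophils, stood at 4.41 CPM in Control, 115 in PD00 and 203 in Model, 26.2-fold higher in PD00 (23.6 to 29.2), and the eotaxin Ccl11 at 10.01 CPM in Control, 15.9 in PD00 and 25.9 in Model, 1.59-fold higher in PD00 (1.46 to 1.74). Chil3, a chitinase-like protein (chromosome 3, 106147554 to 106167564), stood at 1133 CPM in Control, 38793 in PD00 and 27683 in Model, 34.2-fold higher in PD00 (34.03 to 34.5). Among the readout genes, only Chil3 stood higher in PD00 than in Model. Its neighbour Chil4 had 0 UMIs in Control, 53.8 CPM in PD00 and 404 in Model. Against the floor of 3 UMIs it was 1486-fold higher in PD00 (interval from 1208), although 24.7% of its PD00 UMIs came from 1 cell. The mucin Muc5ac had 2 UMIs in Control, 301 in PD00 and 1323 in Model (156 times in PD00; 42.9 to 1298), with 36.9% of the PD00 UMIs in 1 cell. Postn, the matrix protein periostin, stood at 11.9 CPM in Control, 26.9 in PD00 and 49.8 in Model, 2.27-fold higher in PD00 (2.10 to 2.45), with 21.4% of PD00 UMIs in 1 cell.

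The lowest genes in PD00 were mostly products of the Control alveolar macrophages, which held 87.9% to 95.8% of the Control UMIs of all 10 except Gzmc. Marco, a scavenger receptor, stood at 19.9 CPM in Control, 0.540 in PD00 and 0.530 in Model, 36.9-fold lower in PD00 (27.3 to 51.2). Ereg, an epidermal growth factor receptor ligand, stood at 170 CPM in Control, 5.81 in PD00 and 4.34 in Model, 29.3-fold lower in PD00 (26.7 to 32.2). Tnf, a central inflammatory cytokine (chromosome 17, 35199381 to 35202007), stood at 485 CPM in Control, 26.4 in PD00 and 20.7 in Model, 18.3-fold lower in PD00 (17.5 to 19.2). All 3 were at similarly low levels in PD00 and Model. Fabp1, a fatty acid-binding protein, stood at 348 CPM in Control, 16.6 in PD00 and 5.31 in Model, 20.97-fold lower in PD00 (19.8 to 22.2), and Gdf15, a stress-induced cytokine, at 357 CPM in Control, 28.6 in PD00 and 21.97 in Model, 12.5-fold lower in PD00 (11.99 to 13.1). Pnpla5, Slc9a2, Coro6 and Vstm2a were 43.5, 20.5, 15.8 and 14.6-fold lower. Gzmc, a granzyme found here in basophils or mast cells (83.6% of Control UMIs), was 42.6-fold lower (16.3 to 158).

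**Figure D2:**
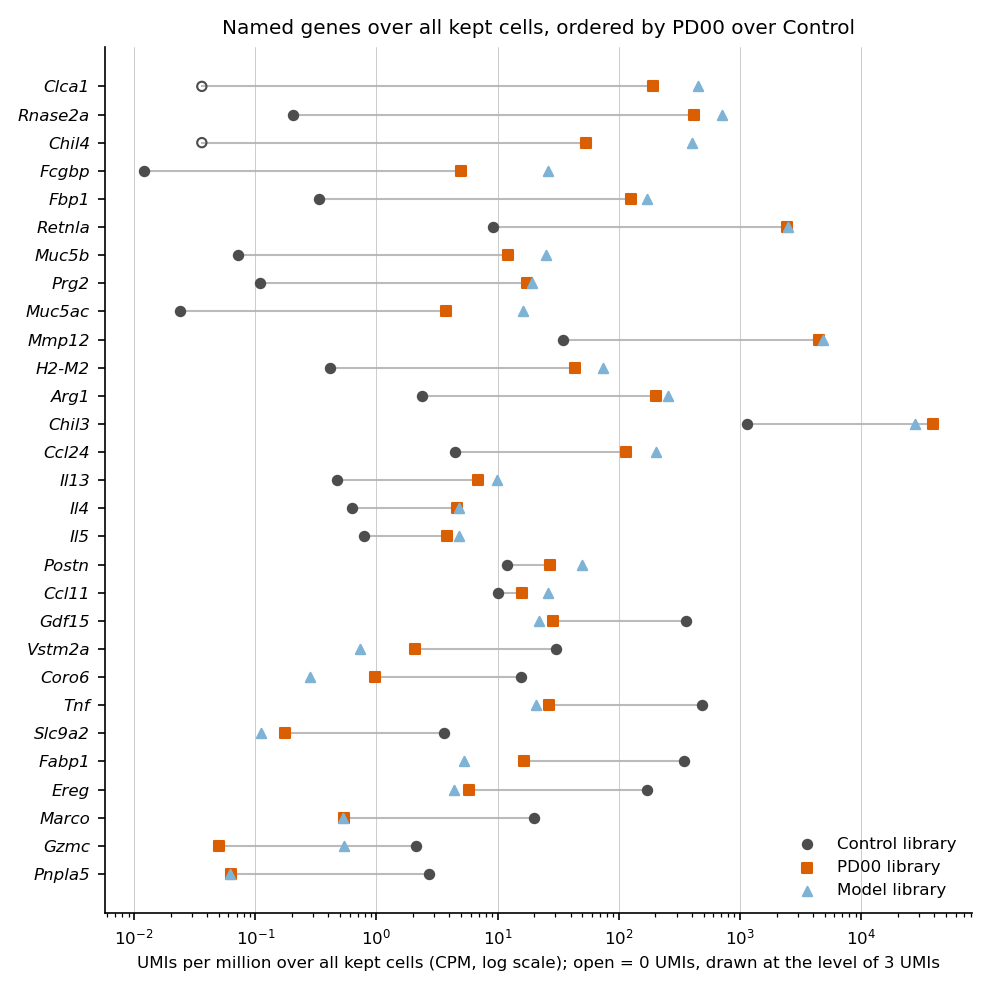
Level of each named gene over all kept cells (x axis, CPM, log scale) in the Control, PD00 and Model libraries, ordered by the ratio of PD00 over Control, with 0 UMIs drawn open at the level of 3 UMIs. Genes drawn above Gdf15 are higher in PD00 than in Control, and Chil3 is the only one of the readouts with PD00 above Model.

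Fewer alveolar macrophages lower the sum of their genes whatever each cell holds. Levels were therefore recomputed with the cell shares of Control, over the 16 gates with at least 20 cells in both libraries. Eosinophils, basophils or mast cells, mural cells, unsplit macrophages, mixed cells and ungated cells were among those left out of both. Folds of genes held largely by such cells, as Prg2, Gzmc and Il13, also change through that loss. Without them Prg2 in PD00 went from 17.3 to 4.31 CPM, and Gzmc in Control from 2.14 to 0.288 CPM. At Control cell shares Retnla was 211-fold higher in PD00, Chil3 48.3-fold, Mmp12 131-fold, Arg1 68.4-fold and Clca1, against the floor, 4649-fold higher. Il4, Il5 and Il13 were 7.16, 3.22 and 25.9-fold higher. Tnf remained 17.7-fold lower, while Fabp1 was 10.9-fold lower and Gzmc 3.56-fold lower. Of the 29 genes named over all cells, 29 kept their direction at Control shares, but the fold of 11 was over 1.5 times smaller than over all cells and that of 5 over 1.5 times larger. Of the 10 lowest genes 8 were among those that shrank, including Pnpla5 (23.8-fold lower), Ereg (19.1-fold), Gdf15 (7.67-fold) and Vstm2a (7.65-fold), and among the higher genes so did Prg2 (65.8-fold), H2-M2 (69.3-fold) and Il5. The counts of genes past 2-fold were 743 higher and 1005 lower at Control shares, against 889 and 1350 without the weighting.

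Gene lists are described by how many of their measured members were at least 2-fold higher or lower in PD00 and by their median log2 ratio, beside the median of all genes tested, which was -0.13 over all cells. Goblet cell genes had 10 of 12 members higher and a median of 6.62. Among them the disulfide isomerase Agr2, needed for mucin folding, had 2 UMIs in Control and 384 in PD00, and the trefoil factor Tff2 had 12 and 497. Type 2 cytokines had 5 of 6 higher and 1 lower (median 2.81), and chemokines and receptors of eosinophils and T helper 2 cells 6 of 9 higher and 1 lower (median 2.28). In the latter list Ccl8 stood at 7.75 CPM in Control, 345 in PD00 and 751 in Model, and Ccl17 at 9.31, 97.9 and 159.97. Alternative activation genes had 10 of 16 higher (median 1.76), and eosinophil granule and ribonuclease genes 4 of 6 (median 4.14). Inflammatory cytokines and chemokines had 1 of 19 higher and 11 lower (median -1.51). The neutrophil attractant Cxcl2 stood at 8738 CPM in Control, 2300.5 in PD00 and 1659.6 in Model, 3.798-fold lower in PD00 (3.78 to 3.82), and the 1 member of this list past 2-fold upwards was Nos2, the inducible nitric oxide synthase (0.664 and 4.82 CPM). Cytotoxic granule genes had 9 of 12 lower and 0 higher (median -2.0).

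Receptors of the type 2 cytokines differed less than their ligands, with 2 of 9 higher, 1 lower and a median of -0.29. Alarmins and their receptors had 3 of 9 higher and 1 lower, the latter being Il18, a cytokine of the IL-1 family. It stood at 291 CPM in Control, 27.7 in PD00 and 10.4 in Model, 10.5-fold lower in PD00 (10.04 to 10.96). Metabolic lists stayed near the background over all cells. Glycolysis had 1 of 21 higher and 1 lower (median 0.05), cholesterol synthesis 1 of 21 higher (median -0.46), and surfactant genes 1 of 12 lower (median 0.28, of the opposite sign with equal weight per cell). Club cell and airway genes had 4 of 10 higher and 1 lower, with Scgb3a1, a secretoglobin of airway secretory cells, at 2.09 CPM in Control, 67.95 in PD00 and 205 in Model, 32.5-fold higher in PD00 (27.96 to 38.1) and Scgb3a2 at 142 CPM in Control, 60.4 in PD00 and 152 in Model, 2.36-fold lower in PD00 (2.28 to 2.44). At Control cell shares the medians of goblet (6.58), type 2 cytokine (2.39), alternative activation (1.14) and inflammatory genes (-1.55) kept their sign. The median of cytotoxic genes was -0.82 there, and that of immunoglobulin constant genes went from 2.95 to 0.0068.

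Within the epithelial gate (85 Control, 65 PD00 and 67 Model cells, too few to split into airway and alveolar types), PD00 cells carried a mucous and Retnla-rich profile. Retnla made up 31.5 CPM in Control, 48204 in PD00 and 38906 in Model, with UMIs in 64 of the 65 PD00 cells. Retnla UMIs were also found in 69.4% of all kept PD00 cells, so that count does not tell expression from free RNA. The part of free RNA in it was not tested. Clca1 was at 0 in Control, 7924 CPM in PD00 (17 of 65 cells) and 17497 CPM in Model (45 of 67 cells), so that Clca1 was found in fewer PD00 than Model cells. Muc5b was at 0, 562 and 1066 CPM. Muc5ac, Agr2 and Fcgbp stood at 156, 228 and 154 CPM in PD00 and had 1 UMI each in Control, but 1 PD00 cell held 48.3% of the Muc5ac and 49.9% of the Agr2 UMIs. Chil4 was at 1567 CPM in PD00 and 13831 in Model. The club cell secretoglobin Scgb1a1 stood at 369433 and 285940 CPM and Sftpc, the surfactant protein of alveolar type 2 cells, at 45444.5 and 24048 CPM. The mixture of airway and alveolar cells in each gate was not tested. PD00 epithelial cells lay in clusters 2 (52.3%) and 43 (47.7%), Control ones all in cluster 2.

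T-gated cells of PD00 held more transcripts of T helper 2 cytokines, Il10, Il21 and checkpoint receptors than those of Control, and fewer of granzymes and of naive cell genes. In this gate 10.4% of 10206 genes were at least 2-fold higher and 2.47% lower, with a median log2 ratio of 0.23. Control T cells lay mainly in clusters 13 (71.6%) and 10 (16.3%), and PD00 T cells in clusters 38 (33.7%), 39 (33.2%) and 40 (15.7%). A cluster mostly of 1 library may be that library and not a type. Because free RNA reaches every droplet, the median of the other gates of PD00 is given beside a level where it is not near 0. Il13 stood at 0.719 CPM in Control, 39.2 in PD00 and 42.8 in Model, 54.5-fold higher in PD00 (24.8 to 149). Il5 stood at 1.68 CPM in Control, 21.6 in PD00 and 22.2 in Model, 12.9-fold higher in PD00 (7.53 to 23.9) and Il4 at 2.64 CPM in Control, 21.8 in PD00 and 16.3 in Model, 8.25-fold higher in PD00 (5.33 to 13.4). Of the 6 type 2 cytokines measured, 5 were higher and 1 lower (median 4.08). The lower one was Csf2, a myeloid growth factor (17.6 and 7.40 CPM). Il21, a cytokine of follicular helper T cells, had 0 UMIs in Control, 14.8 CPM in PD00 and 8.82 in Model. Against the floor it was 41.1-fold higher in PD00 (interval from 33.1). Il10, a regulatory cytokine, stood at 2.998 CPM in Control, 66.8 in PD00 and 42.2 in Model, 22.3-fold higher in PD00 (14.99 to 34.7).

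Checkpoint and co-stimulatory genes had 7 of 12 members higher and 0 lower (median 1.20), and T helper and regulatory genes 9 of 17 higher and 1 lower (median 1.17). The inhibitory receptor Pdcd1 stood at 7.79 and 51.9 CPM, the B cell helper ligand Cd40lg at 20.7 and 94.7 CPM and the inhibitory receptor Ctla4 at 115 and 343 CPM. The transcription factor Maf stood at 156 CPM in Control, 635 in PD00 and 502 in Model, 4.06-fold higher in PD00 (3.83 to 4.31). Foxp3, which defines regulatory T cells, stood at 23.4 and 28.4 CPM (1.21 times; 1.01 to 1.46), and Tbx21, the T helper 1 factor, at 4.44 and 5.27 CPM. Ifng, the T helper 1 cytokine, stood at 23.1 and 6.63 CPM, 3.49-fold lower (2.67 to 4.60), and Il17a, the T helper 17 cytokine, at 88.8 and 49.3 CPM. The T helper 2 homing receptor Ccr4 stood at 13.4 and 52.96 CPM and Ccr8 at 1.68 and 4.34 CPM. Chemokines and receptors of this axis had 7 of 8 members higher, but ligands of that list were also found in the other gates of PD00, with Ccl8 at 141 CPM in T cells against a median of 114 over the other gates, and Ccl17 at 20.9 CPM, below their median of 65.4. Foxe1, a transcription factor of thyroid development, had 2 UMIs in Control, stood at 15.3 CPM in PD00 and 0.203 in Model, and was 63.8 times higher in PD00 than in Control (17.4 to 531).

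Cytotoxic granule genes had 7 of 11 members lower in PD00 T cells and 0 higher (median -1.50). The granzyme Gzma stood at 365 CPM in Control, 25.1 in PD00 and 229.8 in Model, 14.6-fold lower in PD00 (12.9 to 16.5), and Gzmb at 44.4 CPM in Control, 9.35 in PD00 and 51.1 in Model, 4.74-fold lower in PD00 (3.82 to 5.92). PD00 was below both Control and Model for these granzymes. The chemokine Ccl5 of cytotoxic cells stood at 1099 and 343 CPM and Nkg7 at 135 and 43.95 CPM. These values depend on the gate. With cells assigned by cluster instead, the list's median was 0.30, of the opposite sign, and Gzma was 1.41-fold higher in PD00. Under that assignment other cells are compared. Cluster 34, with 97.1% of the PD00 NK-gated cells, was not typed as NK, and 5.99% of Control T cells lay in cluster 0 with the Control NK cells. Their part in the reversal was not tested. Genes of naive and memory lymphocytes had 3 of 12 members higher and 5 lower (median -0.57). The lymph node homing receptor gene Ccr7 (528 and 190.1 CPM) and the T cell transcription factor gene Lef1 (355 and 135 CPM) were lower in PD00. The tissue residence genes Cxcr6 (80.5 and 229 CPM) and Itgae (14.9 and 52.96 CPM) and the activation marker Cd44 (136 and 339 CPM) were higher. Of the 3 lowest genes, the other two, Dapl1 and Cpne4, were 7.44 and 6.64-fold lower. Cell cycle genes had 0 of 20 members past 2-fold upwards and 0 downwards (median 0.21), and glycolysis 1 of 18 upwards (median 0.30).

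Counted by cell, UMIs of Il1rl1, which encodes ST2, the IL-33 receptor of T helper 2 cells, were found in 5.16% of Control, 35.7% of PD00 and 26.2% of Model T cells. Median depths were 4238.5 and 4041 UMIs in Control and PD00. With every cell thinned to 1000 UMIs the shares were 2.40% in Control and 20% in PD00 (14.1% in Model), and in B cells, which should lack the gene (median depths 3174 and 5041 UMIs), 0.127% and 1.46% of unthinned cells held a UMI. Cells with an Il1rl1 UMI were thus more frequent in PD00 than in Control at equal depth. Cd4 was found in 24.6% of Control and 43.5% of PD00 T cells (thinned 7.53% and 14.3%; B cells 0.253% and 1.32%). The CD8 genes went the other way, 22.1% and 7.59% (thinned 9.87% and 3.45%; B cells 0.380% and 0.293%), with 11.96% in Model. Foxp3 shares were close, at 4.27% and 4.85% (thinned 1.73% and 2.13%). Genes of gamma-delta T cells were found in 9.38% and 9.70% (thinned 4.35% and 5.81%). The proliferation genes Mki67 or Top2a were found in 8.99% and 21.8% (thinned 3.40% and 8.14%). In B cells the shares were 7.98% and 20.6%, about the same as in T cells (thinned 1.78% and 6.04%). Neutrophils, at lower median depths (2016 and 2056.5 UMIs), had 2.94% and 4.72%. B cells may therefore not give a background for these genes, and their own division was not tested.

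**Figure D3:**
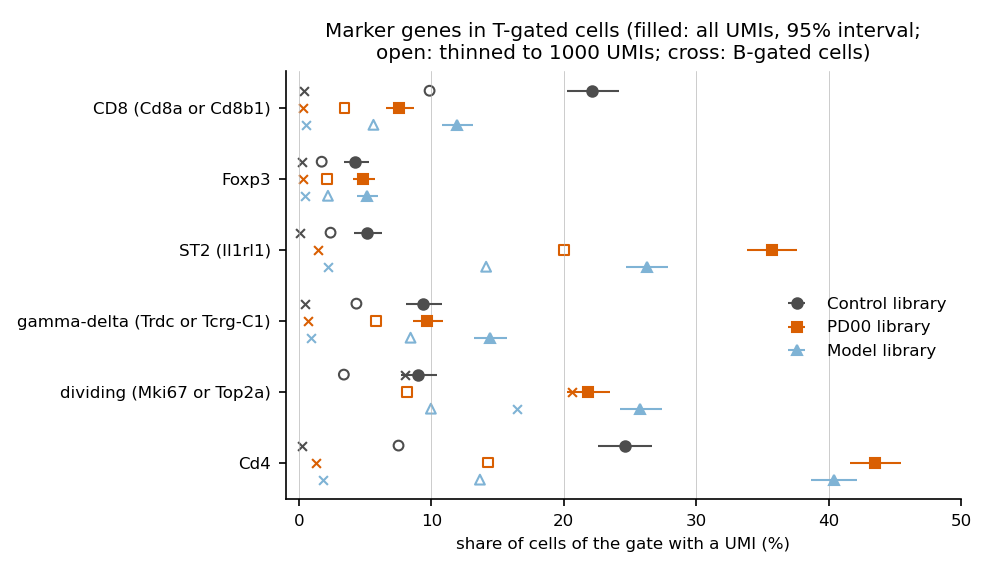
Share of T-gated cells with a UMI of each marker (x axis, %) in the 3 libraries, with 95% intervals on filled points, the value at 1000 UMIs per cell as open points and the share among B-gated cells as crosses. ST2 (5.16% in Control and 35.7% in PD00) and Cd4 lie higher and CD8 (22.1% and 7.59%) lower in PD00 than in Control, and the crosses of the proliferation genes lie beside the filled points.

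ILC2-gated cells, innate cells that respond to epithelial alarmins, are described with caution, because 25 of 194 Control cells (12.9%) but 205 of 214 PD00 cells (95.8%) lay in clusters that held more T-gated cells. Control ILC2 lay mainly in cluster 18 (85.6%) and PD00 ILC2 in cluster 38 (65.4%). The rule of the gate sends nearly all lymphoid cells with UMIs of Cd3d, Cd3e, Cd3g or Trac to the T cells, and Cd3e had 0 UMIs in the ILC2 of both libraries. Trbc2, a T cell receptor constant gene that the rule does not use, was found in 67.5% of Control and 47.2% of PD00 cells of the gate, against 2.79% and 2.93% of B cells, and whether T cells remained in the gate was not tested. Of 3748 genes 10.7% were at least 2-fold higher and 4.78% lower. The checkpoint list had 4 of 4 members higher (median 2.28), with Ctla4 11.5-fold (4.96 to 32.4) and Cd28 6.15-fold (4.06 to 9.65) higher. Tnfsf8, a ligand of activated T cells, was 19.9-fold higher (9.82 to 47). Csf2 (570.4 and 112 CPM), the chemokine Ccl1 (780.04 and 166 CPM) and Tmem176a (409.5 and 90.7 CPM) were 5.11, 4.70 and 4.51-fold lower. With cells assigned by cluster these 3 genes were instead 2.45, 3.42 and 3.64-fold higher in PD00. That assignment takes the 205 PD00 and 25 Control cells named above out of the ILC2, so few ILC2-gated cells of PD00 remain in it. The type 2 cytokine list had 2 measured members and its median of -1.26 also reversed there, to 3.12, and to 1.78 with genes of at least 10 UMIs, so no direction is given for it.

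B-gated cells differed little in number or in antigen presentation, while plasma cells differed in both number and antibody class. In B cells (clusters 1 in Control, 96.2%, and 31 in PD00, 97.4%) 5.92% of 7802 genes were at least 2-fold higher and 2.4% lower. MHC class II genes had 1 of 10 members higher and 0 lower (median -0.19, all genes 0.09), the 1 being Ciita, the master regulator of class II (48.4 and 118 CPM), while H2-Aa stood at 4869 and 4168 CPM. The quiescence factor Klf2 stood at 1424 CPM in Control, 476 in PD00 and 452 in Model, 2.99-fold lower in PD00 (2.83 to 3.16). Lmo7 (7.55 and 97.5 CPM) was 12.9-fold higher. Parm1 had 0 and 67 UMIs (15.9-fold higher against the floor), and Apoc2 2 and 240 UMIs (85.2 times, 23.3 to 708). Vpreb3 (161 and 36.3 CPM), Hist1h1e (461 and 113 CPM) and Stat4 (106 and 23.2 CPM) were 4.43, 4.07 and 4.60-fold lower.

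Plasma cells were classed by the heavy chain with the most UMIs in each cell. Of 344 in PD00, 178 were IgG1 (51.7%, 46.3 to 57.1), the class that IL-4 promotes. In Control 0 of 23 were IgG1, with an interval up to 14.8%, and in Model 247 of 396 (62.4%). The Control plasma cells were mostly IgA, the mucosal class (20 of 23, 86.96%; 66.4 to 97.2), whereas IgA took 22.1% and IgM 22.97% in PD00. IgE, the class that arms mast cells, was the leading chain in 7 PD00 cells (2.03%; 0.822 to 4.15) and in 0 of 396 Model cells. Over all cells Ighe had 0 UMIs in Control, 9346 in PD00 and 683 in Model, with 90.9% of the PD00 UMIs in the plasma gate. 19.96% of the Ighe UMIs of that gate came from 1 cell, and 55 of the 344 cells held one. Ighg1 had 10, 453665 and 587534 UMIs. It also stood at 635 CPM in PD00 T cells, which do not make it, and was found in 89.8% of them, and antibody transcripts outside the plasma gate are therefore not described. Immunoglobulin constant genes had 11 of 13 members higher over all cells.

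PD00 alveolar macrophages, although fewer, carried much higher levels of alternative activation genes and much lower levels of inflammatory cytokines than those of Control. In this gate 6.22% of 11675 genes were at least 2-fold higher and 8.51% lower, with a median log2 ratio of -0.17. Control cells lay in clusters 4 (58.8%) and 5 (34.0%) and PD00 cells in cluster 37 (92.5%), at median depths of 14735.5 and 17512 UMIs. Alternative activation genes had 10 of 15 members higher and 1 lower (median 3.70). Retnla stood at 0.764 CPM in Control, 1039 in PD00 and 1039 in Model, 1361-fold higher in PD00 (983 to 1943), against 319 CPM as the median of the other PD00 gates. Arg1 stood at 0.488 CPM in Control, 230.2 in PD00 and 365 in Model, 472-fold higher in PD00 (314 to 745), against 16.3 in the other gates. Chil3 stood at 1841 CPM in Control, 85296 in PD00 and 84697 in Model, 46.3-fold higher in PD00 (46.01 to 46.6), against 4005. For all 3, Control was low, PD00 and Model were high, and the PD00 level was over 3 times that of its other gates. The lectin Mgl2 stood at 0.488 and 27.7 CPM (other gates 15.7), the inhibitory ligand Pdcd1lg2 at 3.63 and 26.9 CPM and the T helper 2 attractant Ccl17 at 0.721 and 80.5 CPM (other gates 42.7). The 1 lower member was Il1rn, the IL-1 receptor antagonist (417 and 163 CPM). Rnase2a (0.170 and 563 CPM) and Fbp1 (0.127 and 324 CPM) were 3319 and 2547-fold higher.

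Inflammatory cytokines and chemokines had 12 of 17 members lower in PD00 alveolar macrophages and 0 higher (median -1.66). Tnf stood at 779 CPM in Control, 32.9 in PD00 and 16.6 in Model, 23.7-fold lower in PD00 (22.03 to 25.5). Cxcl2 stood at 12807 CPM in Control, 3807 in PD00 and 2924 in Model, 3.36-fold lower in PD00 (3.34 to 3.39), Il1a at 1056 CPM in Control, 222 in PD00 and 149 in Model, 4.75-fold lower in PD00 (4.62 to 4.89) and the chemokine Ccl3 at 526 CPM in Control, 66.8 in PD00 and 107 in Model, 7.87-fold lower in PD00 (7.47 to 8.29). In these 4 genes PD00 and Model both lay far below Control. Il1b, by contrast, stood at 1049 and 775 CPM, less than 2-fold. The flagellin receptor Tlr5 had 206 UMIs in Control and 0 in PD00, 33.4-fold lower against the floor (interval from 26.9). Ereg was 23.7-fold lower (20.96 to 26.8). Immediate-early genes, which rise when tissue is handled, had 3 of 16 members lower (median -0.34), with Egr3 4.54-fold lower. Whether handling of the Control lung sets part of its inflammatory level was not tested.

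The lists for matrix breakdown, complement and antigen presentation also had more members higher than lower in these cells, some of them near the level of the other gates. Matrix proteases and inhibitors had 6 of 12 members higher and 1 lower (median 1.20). Mmp12 stood at 50.7 CPM in Control, 6835 in PD00 and 9766 in Model, 135-fold higher in PD00 (129.5 to 140.5), the membrane protease Mmp14 stood at 0.318 and 28.9 CPM and Adam8 at 3.56 and 149 CPM. Complement genes had 7 of 14 higher and 1 lower (median 1.01). This list holds C1qa, C1qb and C1qc, by which the gate splits macrophages, so their values follow in part from the gate. The anaphylatoxin receptors differed in direction, with C3ar1 at 0.403 CPM in Control, 26.9 in PD00 and 26.2 in Model, 66.7-fold higher in PD00 (42.3 to 112) and C5ar1 at 107 CPM in Control, 17.5 in PD00 and 4.94 in Model, 6.10-fold lower in PD00 (5.51 to 6.77). MHC class II genes had 5 of 9 higher (median 1.03). H2-DMb1, which helps load peptides, stood at 41.03 and 216 CPM, while H2-Aa (740.3 CPM in PD00) and Cd74 (1481) stood near the median of the other gates (583 and 1491.5). Eosinophil granule and ribonuclease genes had 3 of 4 higher, among them Ear2 (1263 and 2646 CPM), a ribonuclease that alveolar macrophages express.

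The series title names metabolic pathways, and in alveolar macrophages lipid genes differed in both directions. Cholesterol synthesis genes had 9 of 21 members lower and 1 higher (median -0.75). Idi1 stood at 36.5 CPM in Control, 14.6 in PD00 and 43.9 in Model, 2.50-fold lower in PD00 than in Control (2.22 to 2.82). Sqle, squalene epoxidase, stood at 14.4, 5.89 and 16.2 CPM. In both genes PD00 was the lowest of the libraries. The sterol sensor gene Srebf2 stood at 59.4 and 25.6 CPM, and the 1 higher member was Dhcr7 (15.9 and 32.9 CPM), which makes the last step to cholesterol. Fatty acid uptake genes had 2 of 13 higher and 1 lower (median 0.16). The scavenger receptor Cd36 stood at 118 CPM in Control, 568 in PD00 and 489.7 in Model, 4.82-fold higher in PD00 (4.67 to 4.98), Fabp1 at 575 CPM in Control, 51.6 in PD00 and 23.4 in Model, 11.1-fold lower in PD00 (10.5 to 11.8), and the desaturase Scd1 stood at 21.04 and 100.1 CPM. The lipid regulator Pparg stood at 93.9 and 52.8 CPM and the lipase Lpl at 2424 and 2680.1 CPM, both less than 2-fold. Glycolysis had 1 of 20 members higher, Pgk1 (77.96 and 198 CPM), and 0 lower (median -0.01), and fatty acid oxidation 0 of 20 higher and 1 lower (median -0.04). These last 2 lists did not stand apart from the background. Cell cycle genes had 0 of 20 past 2-fold either way (median -0.54).

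Interstitial macrophages of PD00 were more numerous and showed the same 2 list-level features, higher alternative activation and lower inflammatory genes, together with lower interferon response genes and higher lipid-associated macrophage genes. In this gate 10.6% of 8954 genes were at least 2-fold higher and 8.06% lower, with a median log2 ratio of 0.04. Control cells lay in cluster 23 (94.6%) and PD00 cells in clusters 32 (56.9%) and 28 (32.9%), at median depths of 5468 and 10601 UMIs. Alternative activation genes had 9 of 16 members higher and 3 lower (median 1.05). Chil3 stood at 101 CPM in Control, 30913 in PD00 and 32769 in Model, 307-fold higher in PD00 (258 to 369), against 4005 CPM in the other PD00 gates. Arg1 stood at 3.22 CPM in Control, 476 in PD00 and 632 in Model, 148-fold higher in PD00 (57.8 to 543), from 4 Control UMIs, and Retnla at 453 CPM in Control, 5559 in PD00 and 5819 in Model, 12.3-fold higher in PD00 (11.3 to 13.4), against 16.3 and 319 CPM in the other gates. Pdcd1lg2 had 0 Control UMIs and stood at 46.99 CPM in PD00, 19.5-fold higher against the floor. The 3 lower members were lectins and scavenger receptors of resident macrophages, Mgl2 (478 and 189 CPM), Clec10a (132 and 48.95 CPM) and Cd163 (257 and 81.6 CPM). Rnase2a, at 0 in Control, was 463-fold higher against the floor (interval from 377).

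Inflammatory genes had 12 of 16 members lower and 0 higher in interstitial macrophages (median -1.78). The monocyte attractant Ccl2 stood at 2290.2 CPM in Control, 61.5 in PD00 and 112 in Model, 37.3-fold lower in PD00 (34.03 to 40.9), Ccl3 at 1429 CPM in Control, 55.2 in PD00 and 72.4 in Model, 25.9-fold lower in PD00 (23.5 to 28.7) and Tnf at 305 CPM in Control, 39.7 in PD00 and 27.1 in Model, 7.68-fold lower in PD00 (6.63 to 8.89). PD00 and Model were both far below Control. Ccl8, a ligand of the T helper 2 receptor Ccr8, went the other way and stood at 294 CPM in Control, 2043 in PD00 and 3294 in Model, 6.96-fold higher in PD00 (6.27 to 7.74), against 114 CPM in the other gates. Interferon response genes had 11 of 18 lower and 0 higher (median -1.27), with Cxcl10 at 339 CPM in Control, 13.6 in PD00 and 18.3 in Model, 24.9-fold lower in PD00 (20.4 to 30.7), Isg15 5.72-fold lower (4.74 to 6.89) and Irf7 2.35-fold lower (1.37 to 3.90). Immediate-early genes had 9 of 16 lower (median -1.51), with Jun at 977 and 210.4 CPM and Fos at 812 and 277 CPM, and their part in the inflammatory difference was not tested. The B cell attractant Cxcl13 (643 and 6.53 CPM) and the lectin Cd209g (138 and 2.50 CPM) were 98.5 and 55.3-fold lower. MHC class II genes had 0 of 8 members past 2-fold either way (median 0.03), and H2-Aa stood at 4408 and 4506 CPM.

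Lipid-associated macrophage genes, a programme of macrophages that take up lipid and debris, had 10 of 15 members higher and 1 lower (median 1.68). Gpnmb stood at 13.7 CPM in Control, 360.1 in PD00 and 283 in Model, 26.3-fold higher in PD00 (16.4 to 45.3), the fatty acid-binding protein Fabp5 at 47.5 CPM in Control, 739 in PD00 and 712 in Model, 15.6-fold higher in PD00 (12.1 to 20.5), and Spp1, osteopontin, at 217 CPM in Control, 909 in PD00 and 1438 in Model, 4.19-fold higher in PD00 (3.71 to 4.74). Within this gate these 3 were lowest in Control. Over all kept cells Spp1 was highest in Control, at 711 CPM against 390 in PD00 and 607 in Model. Alveolar macrophages held 91.2% of its Control UMIs. The lower member was Apoe, apolipoprotein E, at 22027 CPM in Control, 4592 in PD00 and 2909.5 in Model, 4.80-fold lower in PD00 (4.72 to 4.87), and PD00 lay between Control and Model for it. Cells with UMIs of both Gpnmb and Trem2, a lipid receptor, were 7 of 203 in Control (3.45%), 258 of 757 in PD00 (34.1%) and 27.4% in Model. Thinned to 1000 UMIs the shares were 0% and 7.57%, and in B cells 0% and 0.439% of unthinned cells held both. Without these double-positive cells, alternative activation had 8 of 15 members higher (median 1.41), inflammatory genes 11 of 16 lower (median -1.83) and the lipid-associated list 6 of 14 higher (median 0.90). Leaving them out thus kept the direction of all 3 medians. In the alveolar gate, by contrast, the share of cells with both was close in the 2 libraries, at 32.2% in Control and 33.5% in PD00. Cholesterol synthesis genes, lower in alveolar macrophages, had 5 of 19 members higher and 0 lower in interstitial macrophages (median 0.70). Hmgcs1 was 3.78-fold (2.18 to 7.16) and Mvd 4.01-fold (2.08 to 8.87) higher, although the difference between the gates was not tested. Glycolysis had 5 of 18 higher and 1 lower (median 0.66), with Pgk1 at 49.9 and 167 CPM, and cholesterol efflux genes 4 of 12 higher and 4 lower.

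**Figure D4:**
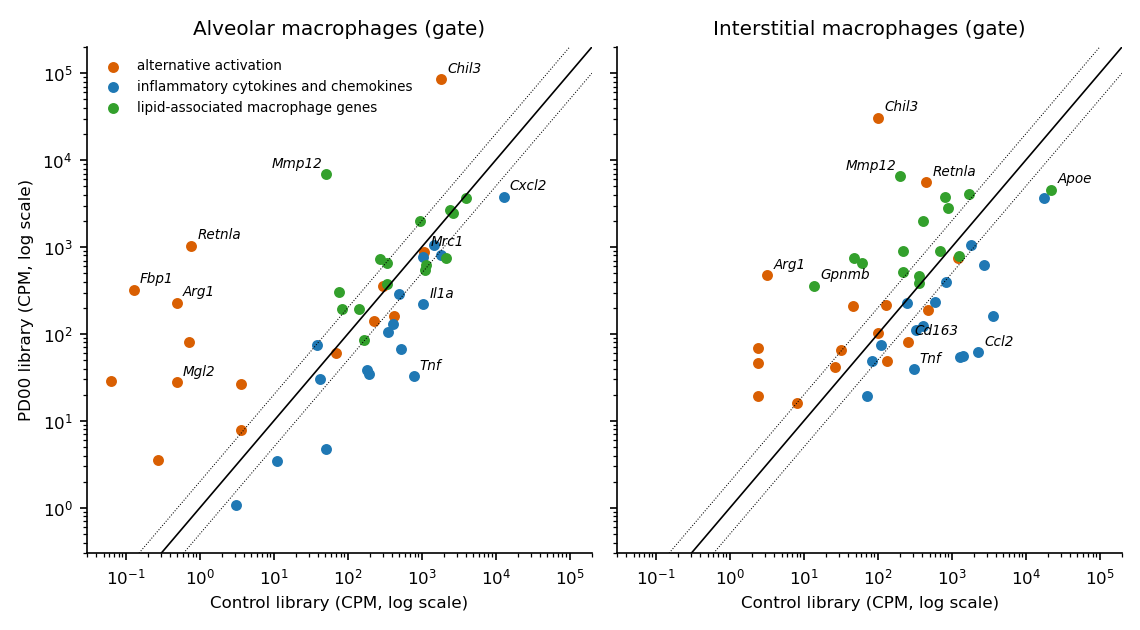
Level in the Control library (x axis) against the PD00 library (y axis), both in CPM on log scales, of members of 3 gene lists in cells gated as alveolar (left) and interstitial (right) macrophages, with a line of equality and dotted lines at 2-fold, and genes with 0 UMIs drawn at the level of 3. Alternative activation genes such as Retnla and Arg1 lie above the lines and inflammatory genes such as Tnf and Cxcl2 below them in alveolar macrophages, while Gpnmb lies above and Apoe below in interstitial macrophages.

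Neutrophils of PD00 held more transcripts of granule proteins made in the bone marrow and fewer of inflammatory cytokines. In this gate (cluster 3 in Control, 98.8%, and 26 in PD00, 87.9%) 6.93% of 4169 genes were at least 2-fold higher and 1.78% lower, with a median log2 ratio of 0.18. Granule and alarmin genes had 8 of 12 members higher (median 1.72). This list holds Mmp8 and Mmp9, markers of the gate, and Chil3, found in 99.9% of all kept PD00 cells. The part of free RNA in it was not tested. The cathelicidin Camp stood at 119.9 CPM in Control, 3486 in PD00 and 4626 in Model, 29.1-fold higher in PD00 (25.2 to 33.8), lactoferrin Ltf at 57.8 CPM in Control, 1616 in PD00 and 2129 in Model, 27.98-fold higher in PD00 (22.7 to 34.8) and Ngp at 229 CPM in Control, 5515 in PD00 and 7029.8 in Model, 24.1-fold higher in PD00 (21.7 to 26.8). In Control 1 cell held 48.7%, 54.3% and 69.3% of their UMIs. The share of neutrophils with a Camp or Ngp UMI was 4.01% in Control, 15.6% in PD00 and 17.1% in Model (thinned 2.08% and 12.9%; B cells 0% and 3.22%). The surface protein Cd177 stood at 45.2 and 314 CPM and the siderophore-binding Lcn2 at 1068 and 2921 CPM, while the alarmin S100a9 stood at 111047 and 100462 CPM. Inflammatory genes had 6 of 13 lower and 0 higher (median -0.63), with Il1b at 7629 CPM in Control, 3746 in PD00 and 3081 in Model, 2.04-fold lower in PD00 (1.97 to 2.10) and Cxcl2 at 21405 CPM in Control, 8941 in PD00 and 7144 in Model, 2.39-fold lower in PD00 (2.35 to 2.44). Interferon response genes had 1 of 18 lower, Isg15 (1745 and 826 CPM). Mitochondrially encoded genes had 5 of 12 higher (median 0.80), and mt-Co1 stood at 1217 and 2879 CPM, below the 8642 CPM of the other PD00 gates. Mnd1 (58 and 2 UMIs) and Spp1 were 26.2 (6.94 to 222) and 3.14-fold lower.

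Fibroblasts of PD00, although fewer, held more transcripts of matrix proteins and complement C3 and fewer interferon response transcripts than those of Control. Unlike most immune gates, fibroblasts of both libraries lay mainly in the same cluster (cluster 8, with 84.8% of Control and 87.2% of PD00 cells). Of 8697 genes 2.54% were at least 2-fold higher and 3.77% lower, with a median log2 ratio of -0.04. Matrix genes had 9 of 22 members higher and 1 lower (median 0.67). Postn, a matrix protein induced by IL-13, stood at 43.98 CPM in Control, 927 in PD00 and 1415 in Model, 21.1-fold higher in PD00 (17.9 to 24.9), against 1.90 CPM in the other gates. Of all Postn UMIs of PD00, 80.9% were in this gate and 21.4% in 1 cell. Tenascin C, Tnc, stood at 10.2 and 38.5 CPM, the collagen crosslinker Lox at 105 and 284 CPM and elastin, Eln, at 660.3 and 1564 CPM. Complement had 2 of 9 higher (median 0.55), with C3 at 1514.5 CPM in Control, 6395 in PD00 and 6159 in Model, 4.22-fold higher in PD00 (4.09 to 4.36). The acute-phase gene Serpina3g stood at 2.15 and 82.9 CPM and Lcn2 at 5.10 and 79.7 CPM. The adhesion molecule Chl1 had 0 and 50 UMIs (33.2-fold higher against the floor). Interferon response genes had 7 of 19 lower and 0 higher (median -0.81). Ifit1 stood at 41.03 CPM in Control, 6.95 in PD00 and 89.04 in Model, 5.90-fold lower in PD00 (3.35 to 11.3) and Isg15 at 53.4 CPM in Control, 14.97 in PD00 and 49.96 in Model, 3.57-fold lower in PD00 (2.39 to 5.50). For both, PD00 was the lowest library, and Ifit1 was higher in Model than in Control. Lsamp, Tcap and the cytochrome Cyp2e1 were 7.80, 11.4 and 6.25-fold lower.

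Endothelial cells differed least among the gates described, by the share of genes past 2-fold: 2.19% of 9408 genes were higher and 3.01% lower (median log2 ratio -0.06). Most lay in cluster 11 in both libraries (84.0% and 76.4%). Vwf, the platelet-binding von Willebrand factor, stood at 145 CPM in Control, 533 in PD00 and 708 in Model, 3.67-fold higher in PD00 (3.34 to 4.02). Serpina3g stood at 61.6 CPM in Control, 306 in PD00 and 709 in Model, 4.97-fold higher in PD00 (4.34 to 5.71) and Fam107a stood at 6.16 and 32.04 CPM. Coagulation and fibrinolysis genes had 4 of 12 members higher and 2 lower (median 0.45). The tissue plasminogen activator Plat stood at 44.9 and 128 CPM and the urokinase Plau at 40.7 and 15.1 CPM, so the 2 plasminogen activators differed in direction. Interferon response genes had 0 of 24 members past 2-fold either way (median 0.16), and MHC class I genes 1 of 13 higher, Nlrc5 (6.38 and 15.1 CPM), the activator of class I genes. The cell cycle inhibitor Cdkn2b, the dioxin-inducible Cyp1a1 and Sept4 were 5.60, 3.73 and 3.38-fold lower.

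**Figure D5:**
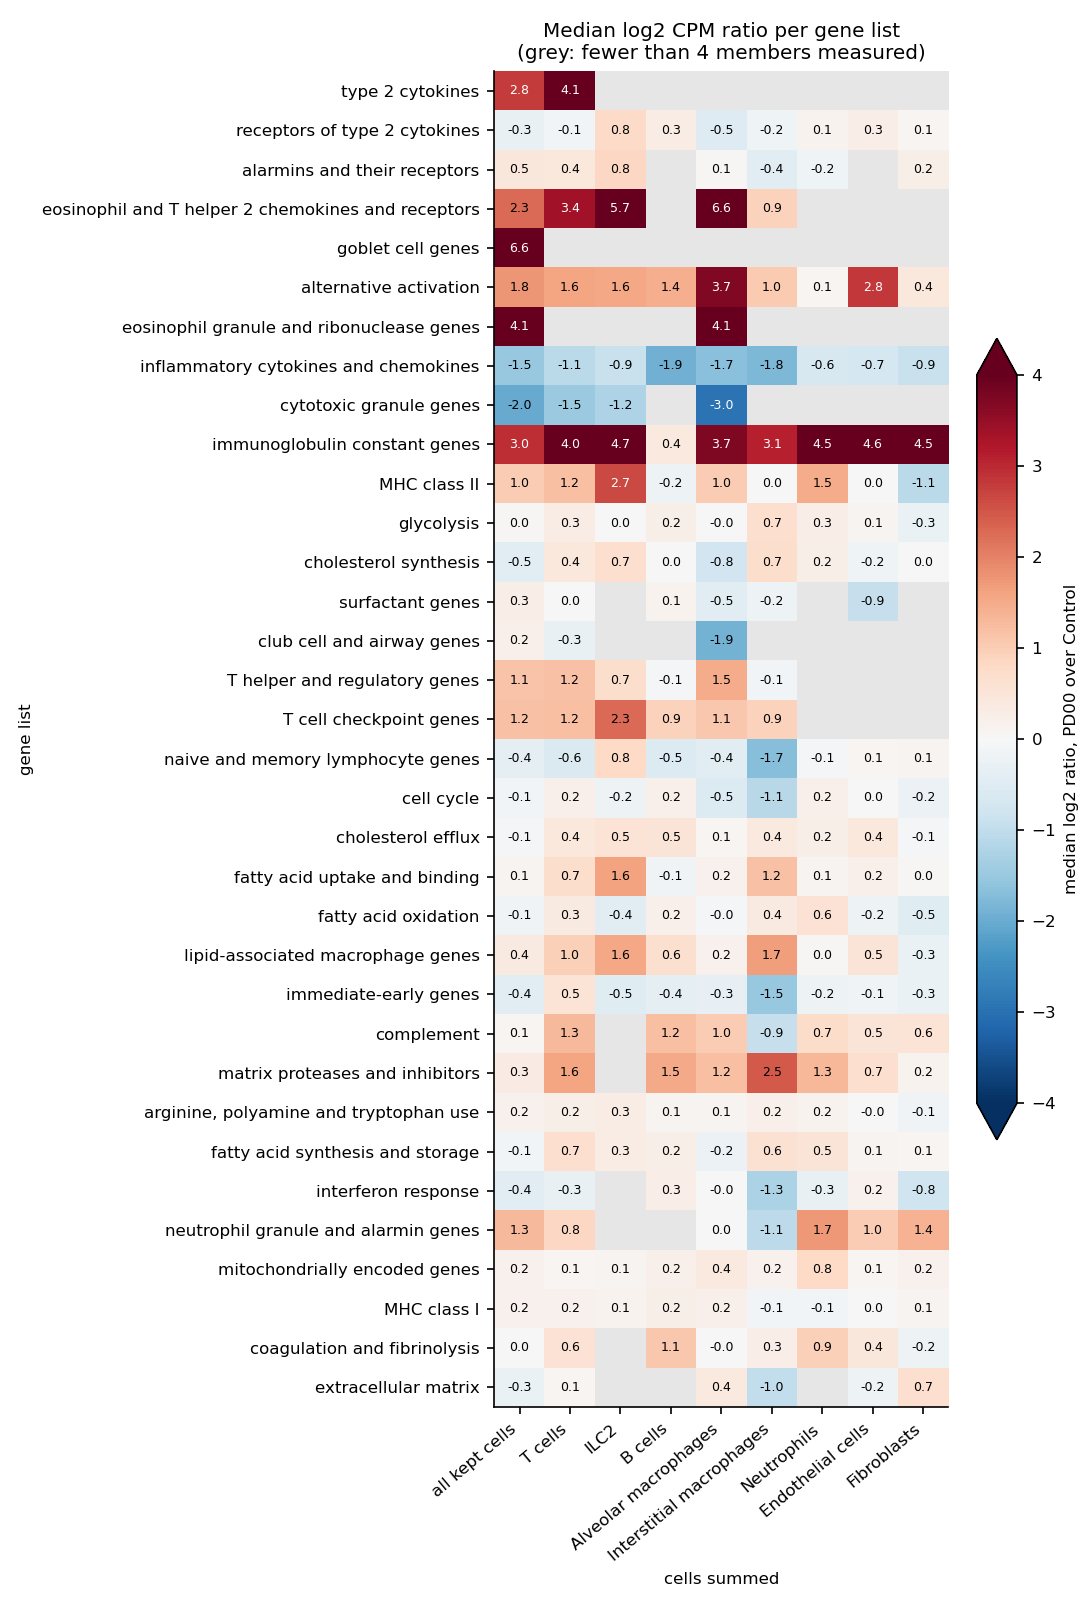
Median log2 ratio of PD00 over Control (colour and printed value) for each gene list (rows) over all kept cells and in 8 gates (columns), grey where fewer than 4 members were measured. Inflammatory genes are below 0 in every column (from -1.92 in B cells to -0.63 in neutrophils). Alternative activation genes are most clearly above 0 in alveolar macrophages (3.70). Immunoglobulin genes are high even in gates that do not make antibody, where their free RNA was not removed. Free RNA of inflammatory genes was not removed either. Control alveolar macrophages held 91.4% of Control Tnf UMIs, and the median of the other gates was 66.1 CPM in Control and 13.8 in PD00. The part of free RNA in the other columns was not tested.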

How the data were processed

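Single-cell RNA of mouse lung was measured with 3' droplet libraries (10x Chromium, version 3 chemistry). Raw UMI counts were deposited for 32285 genes and for barcodes already called as cells. The authors had not normalised these whole-number counts, and per the file headers cellranger 5.0.0 wrote them. The submitters' processing notes name Cell Ranger 3.1.0, STAR and the build mm10. No correction for free RNA was made.

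A barcode was kept if it reached 500 UMIs and 200 genes and its mitochondrial share did not pass 20%. Each cell took the type with the highest score over its listed markers, if it held UMIs of at least 3 of them (2 for T cells, NK cells, ILC2 and eosinophils). Cells in which a type of another lineage, with at least 3 markers, scored over 0.6 of the best were called mixed. Among lymphocytes, Cd3e, Cd3d, Cd3g and Trac set T cells apart, and macrophages were split by the number of alveolar or interstitial markers. This scoring rule was set after the values were seen. Doublets were scored with Scrublet in scanpy 1.11.5. Scores above 0.2 (4.27% of Control, 2.85% of PD00 and 2.23% of Model cells) were kept in and left out only as an alternative. Cells were also clustered without integration by Leiden (leidenalg 0.10.2, resolution 1.5). The cluster gate, an alternative, gives each cluster the type of most of its gated cells.

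UMIs were summed per library and gate and scaled to CPM (UMIs per 1000000). Ratios were taken for genes that reached 50 UMIs in the 2 sums together, with exact conditional binomial intervals, and shares with Clopper-Pearson intervals (95%, scipy 1.17.1). A count of 0 was set at 3 UMIs per sum. Folds against this floor are not lower limits. The ratio and its interval were tested on simulated counts. No p-value was computed. Thinned values draw 1000 UMIs per cell and leave out shallower cells (322 in Control and 1130 in PD00).

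The text names the 10 genes with the highest and the 10 with the lowest ratio over all cells, and the top and bottom 3 of every gate that held 100 cells in both libraries, ranked by the interval bound nearest to 1. Sex-linked, mitochondrial, ribosomal, haemoglobin, antigen receptor and unnamed genes, and genes with over 20% of their UMIs in 1 cell, were left out. Gate markers were left out only within gates, and they were kept in the gene lists. Prg2 and Marco, markers of the eosinophil and alveolar macrophage gates, are therefore named over all cells. The shares of their UMIs in those gates follow in part from the gate itself. Within a gate, the level also had to reach 3 times the other gates' median. To these came 12 readouts of ovalbumin models and members of the described lists. The comparison, the lists (45, with 710 genes) and their members were chosen with earlier results of these data known. Ear11, Clec7a and Mx1 were not analysed here. The alternatives were other filters and gene minimums, doublets left out, a stricter gate, a cluster gate, equal weight per cell, Control cell shares, other scalings and thinning.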

Additional observations from a re-analysis of the deposited data

How the results depend on the processing

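Each group had 1 library, so no result could be checked by leaving out a replicate. No paired analysis was possible because each group had 1 library and no test was run. Of the share ratios, 120 values under an alternative stayed within the counting interval of the main value and 18 moved. Of the CPM ratios, 563 stayed, 78 moved and 4 reversed, and of the list medians 520 stayed, 81 moved and 5 reversed. The cause was not tested.

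With cells typed by cluster, the share ratios of PD00 over Control were 1.68 for T cells, 0.00807 for NK cells, 9.66 for plasma cells, 0.447 for alveolar and 6.05 for interstitial macrophages. The NK value leaves out the 97.1% of PD00 NK-gated cells that lay in cluster 34, which took another type. With a minimum of 500 genes the T cell ratio was 1.56, with a mitochondrial limit of 10% that of alveolar macrophages was 0.347, and with a stricter gate that of eosinophils was 65.3. Thinned to 1000 UMIs, alveolar and interstitial macrophages had ratios of 0.270 and 2.76.

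Genes at least 2-fold higher over all cells numbered 889 in the main setting, 1424 with a minimum of 10 UMIs and 571 with 200, and genes lower 1350, 2177 and 830. With equal weight per cell, the median log2 ratios were 3.28 for type 2 cytokines, 1.59 for alternative activation, -1.34 for inflammatory and -0.016 for surfactant genes, the last of reversed sign. At Control cell shares they were 2.39 for type 2 cytokines and 1.14 for alternative activation. The median of club cell and airway genes reversed to -0.56 with a minimum of 200 UMIs. By cluster, median log2 ratios reversed to 0.30 for cytotoxic genes in T cells and 3.12 for type 2 cytokines in ILC2. CPM ratios reversed to 1.41 for Gzma in T cells, and 2.45 for Csf2, 3.42 for Ccl1 and 3.64 for Tmem176a in ILC2. Typing by cluster gave another type to 205 of the 214 PD00 ILC2-gated cells and to most PD00 NK-gated cells, so other cells were compared. The ILC2 cytokine median was 1.78 with a minimum of 10 UMIs. At a median of 943 UMIs per PD00 eosinophil, genes of low level can go undetected in a cell.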

Other observations

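Most lists of energy metabolism lay near the median of all genes over all cells (-0.13). Tricarboxylic acid cycle genes had 0 of 25 members at least 2-fold higher and 0 lower (median 0.11), nuclear genes of the respiratory chain had 0 of 72 members at least 2-fold higher and 0 lower (median -0.02), and pentose phosphate genes had 0 of 7 members at least 2-fold higher and 0 lower (median -0.19). Glutathione and antioxidant genes had 0 of 21 members at least 2-fold higher and 3 lower (median -0.30). Genes of the unfolded protein response, which secretory cells need, had 5 of 16 members at least 2-fold higher and 0 lower (median 0.66), and lymphoid chemokines and their receptors 5 of 15 members at least 2-fold higher and 1 lower (median 0.73).

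Several genes, chosen after their values were seen, had most of their UMIs in 1 of the 3 libraries. The transcription factor Foxe1 had 5 UMIs in Control, 354 in PD00 and 4 in Model, with 50.8% of its PD00 UMIs in T-gated cells. Ccl20, an epithelial attractant of lymphocytes and dendritic cells, had 1 UMI in Control, 489 in PD00 and 58 in Model, but 42.5% of the PD00 UMIs were in 1 cell. Ighe had 0 UMIs in Control, 9346 in PD00 and 683 in Model. Cartpt, a neuropeptide gene, had 880 UMIs in Control, 0 in PD00 and 0 in Model, but 97.7% of the Control UMIs were in 1 cell. The mucosal mast cell proteases Mcpt1 and Mcpt2 were listed only in Model, with 1577 and 1324 UMIs, of which 71.3% and 61.7% were in 1 cell, and 0 in the other two libraries. Each value rests on 1 library.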
